A study of Homo sapiens with 18 samples.

Results

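Aminoacyl-tRNA synthetases are the enzymes that join each amino acid to its tRNA, the step that sets what a codon means. The 36 members described here, of 19289 gene symbols in the table, were taken by symbol and comprise 20 cytosolic genes and 16 nuclear genes for mitochondrial enzymes. They were read by 38 of 21111 probes, because QARS and TARS2 each had a pair. BT549, Hs578T and SUM149PT, 3 established human triple-negative breast cancer (TNBC) lines, were transfected with 50 nM siASAP1, a SMARTpool against the Arf GTPase-activating protein ASAP1, or with siCtrl, a pool of kinase siRNAs. Cells were lysed after 72 h, with 3 biological replicates per line and treatment, and the 18 libraries were measured by TempO-Seq. In this assay a pair of oligonucleotides is ligated on each target RNA and the product is counted, so that each probe samples a small piece of its RNA and levels of different genes cannot be set against each other. No allele was altered, and the lines differ in origin, with BT549 and Hs578T mesenchymal-like and SUM149PT basal-like. Fewer cells of a kind and less RNA per cell cannot be told apart in these bulk lysates.

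Most cytosolic enzymes are encoded apart from their mitochondrial counterparts, which are made in the cytosol and imported. GARS and KARS are exceptions, since 1 gene makes the glycyl- or lysyl-enzyme of both compartments. Several cytosolic synthetases (DARS, EPRS, IARS, KARS, LARS, MARS, QARS and RARS) sit with the scaffold proteins AIMP1, AIMP2 and EEF1E1 in the multisynthetase complex. FARSA and FARSB are the subunits of the cytosolic phenylalanyl-enzyme. Many cytosolic synthetase genes are raised by the transcription factor ATF4 when amino acids run short, through C/EBP-ATF composite sites in their promoters, and WARS, the tryptophanyl-enzyme, is a classic interferon gamma-induced gene.

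The motif TGATGNAA, a common form of the C/EBP-ATF composite site, was searched on both strands of RefSeq promoter windows (GRCh38.p14) from 250 bases before to 50 bases after each gene start. Windows were present for 30 of the 36 members, and AARS2, DARS, LARS, VARS, VARS2 and YARS were not among them. The motif was found in 8 members, 7 of 16 cytosolic and 1 of 14 mitochondrial genes with a window, while 3.62% of all 35116 windows held it. Members are counted by gene (39 windows for 30 genes) and the 3.62% by window, so the shares are not alike. The stretches are printed on the strand that carries the motif, which is in capitals, because these are the members with the site known from the ATF4 response. Of the 8, 7 were tested for siASAP1 (TARS had too few reads), and none had an adjusted p under 0.05 in the fits with every library.
AARS (chr16:70289675-70289704, plus strand): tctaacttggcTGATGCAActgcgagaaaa
CARS (chr11:3057407-3057436, plus strand): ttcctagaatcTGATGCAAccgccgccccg
GARS (chr7:30594834-30594863, minus strand): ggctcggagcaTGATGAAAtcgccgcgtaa
IARS (chr9:92293692-92293721, plus strand): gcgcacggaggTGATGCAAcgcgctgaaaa
MARS (chr12:57488053-57488082, minus strand): gaatccctcgcTGATGCAAccggaaccggc
NARS (chr18:57621804-57621833, minus strand): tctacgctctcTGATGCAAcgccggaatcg
TARS (chr5:33440956-33440985, minus strand): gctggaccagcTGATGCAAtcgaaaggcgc
YARS2 (chr12:32756076-32756105, minus strand): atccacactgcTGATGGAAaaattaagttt
In NARS and TARS the motif began after the RefSeq gene start, and in the other 6 before it. It began 197 bases before the start of YARS2 and 187 before that of AARS. A match is a description of these letters only.

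HARS and HARS2, the cytosolic and mitochondrial histidyl-enzymes, are transcribed away from each other. In RefSeq their starts bound 84 bases, printed here whole because this stretch is shared by a cytosolic and a mitochondrial member. In GENCODE 29 the HARS gene starts at 140691862, past the HARS2 start at 140691426, so the stretch holds for the RefSeq starts only.
HARS-HARS2 (chr5:140691371-140691454, plus strand): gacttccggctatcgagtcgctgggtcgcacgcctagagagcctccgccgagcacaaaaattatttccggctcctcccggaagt

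The libraries held 4.63 to 12.5 M reads (median 6.63 M). Levels below are normalized counts, the authors' reads per probe divided by the size factor of the library, and Log2 FC is siASAP1 over siCtrl on the deposited log2(normalized count + 1) scale. ASAP1 itself was lower in siASAP1 libraries of BT549 (367, 730 and 783, against 1107, 966 and 944) and of Hs578T (782, 825 and 1261, against 1641, 1414 and 2697). In SUM149PT the siASAP1 libraries held 282, 468 and 184, and the siCtrl libraries 1087, 189 and 1314. The library labelled SUM149PT siCtrl replicate 2 thus lay with the siASAP1 libraries for the targeted gene, and values of members and other named genes that include it are given again without it where it bears on them. The epithelial and basal markers CDH1, EPCAM, KRT5, KRT14, KRT17 and KRT6A summed to 21885 to 42090 in SUM149PT and to at most 77.8 elsewhere. EPCAM held most of that sum (mean 29532 in SUM149PT siCtrl), with KRT5 at 26.0 and KRT14 at 0 there. The mesenchymal markers VIM, CDH2, ZEB1, FN1, SPARC and TWIST1 summed to 5781 to 12013 in SUM149PT and to at least 57927.5 elsewhere. Within that list CDH2 was higher in SUM149PT siCtrl (1733) than in BT549 siCtrl (325). Markers of white blood cells and endothelium summed to at most 103 in any library.

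Of the 36 members, 29 (18 cytosolic and 11 mitochondrial) had a mean normalized count of at least 10 over the 18 libraries and were tested. Below this filter were TARS, MARS2, PARS2, TARS2, VARS2, WARS2 and EPRS. The EPRS probe, for the fused glutamyl-prolyl-enzyme, had 0 reads in every library, which allows up to 3 reads in the 125 M of all libraries by counting error alone. Whether transcript or probe was at fault was not tested. TARS had 54 reads in all and WARS2 had 8, and the second QARS probe had 12, so that QARS below means the probe QARS_32281. Within a single line 29 members also passed, with 18 cytosolic and 11 mitochondrial genes in BT549 and Hs578T and 17 and 12 in SUM149PT.

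The members varied widely between replicates of the same group, and they did so together. When each library was set against the mean of its group, a single axis held 42.5% of the variation of all probes. The axis took 49.5% of the within-group variance of the median member, against 32.0% for the median probe, and over 50 percent in 13 of 29 members. HARS (96.5%), WARS (87.4%) and FARSA (85.4%) lay on its other side from LARS2 (82.5%), GARS (79.0%) and NARS (78.1%), and the members were split 15 against 14. SUM149PT siCtrl replicate 2 had the highest score on it (0.56) and SUM149PT siASAP1 replicate 2 the lowest (-0.37), while BT549 siASAP1 replicate 1 (0.34) stood apart from the other libraries of its group (-0.18 and -0.17). The median GC content of transcripts was 52.3% for the members on the side of HARS and 48.3% for those on the side of LARS2. In the fit of all 18 libraries below, most members on the side of LARS2 had a Log2 FC below 0 (FARS2, CARS2 and MARS did not). Most members on the side of HARS had one above 0 (AARS and RARS2 did not). The part of the axis and of GC content in the results below was not tested.

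HARS shows the pattern. Its normalized counts in SUM149PT were 1959, 312 and 2639 after siCtrl and 999, 3015 and 1237 after siASAP1. LARS2, the mitochondrial leucyl-enzyme, ran the other way, with 296, 1775 and 320 after siCtrl and 1205, 244 and 1066 after siASAP1. In both genes the replicate labelled 2 stood apart in each group, in opposite directions, and the groups overlapped. Deviations from group means were also compared over the tested probes of SUM149PT. Those of siASAP1 replicate 2 correlated with those of siCtrl replicates 1 and 3 (0.49 and 0.52). Those of siCtrl replicate 2 correlated with those of siASAP1 replicates 1 and 3 (0.42 and 0.43). ASAP1 itself was lower in siASAP1 replicate 2 (468) than in siCtrl replicates 1 and 3 (1087 and 1314). The reason was not tested, and no fit left out just both SUM149PT libraries labelled 2.

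**Figure D1:**
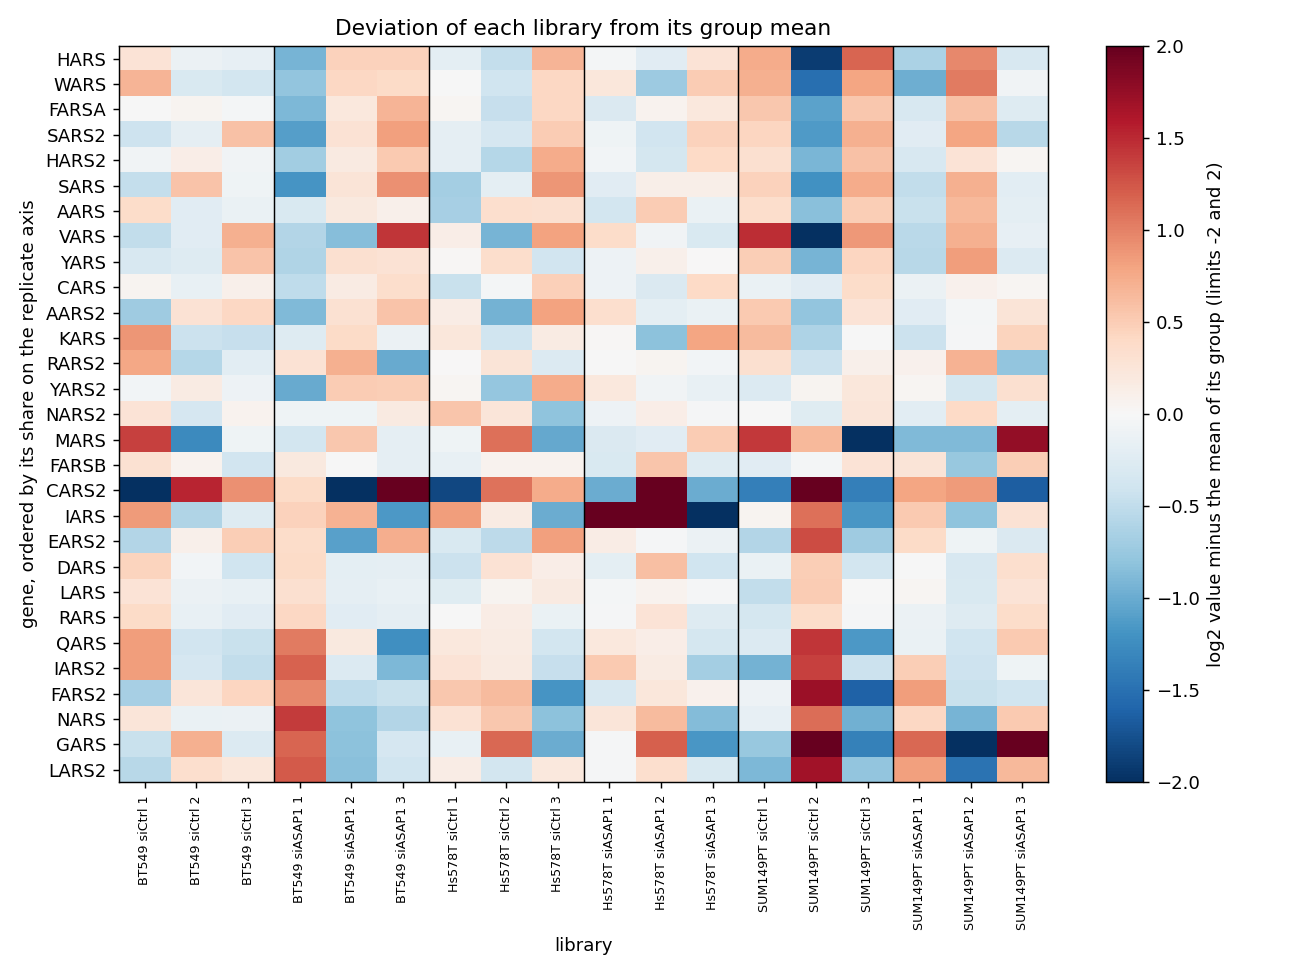
Heat map of the 29 tested members (rows) in the 18 libraries (columns, grouped by line and treatment), coloured by the log2 value minus the mean of the same group of 3 (color scale limited to -2 and 2). Rows are ordered by the share of within-group variance on the main replicate axis, signed by side, with the high shares of one side at the top (HARS), low shares in the middle and the high shares of the other side at the bottom (LARS2), and SUM149PT siCtrl 2 is low in the upper and high in the lower rows.

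The common effect of siASAP1 was tested across all lines in a fit of the 18 libraries that carried line as a term (limma, Benjamini-Hochberg adjustment over 10475 probes). DARS, the aspartyl-enzyme of the multisynthetase complex, fell, and it was the only member of the 29 with an adjusted p under 0.05. None rose. Of all probes tested, 1.06% were called down and 0.678% up. In BT549 the DARS normalized counts were 732, 493 and 498 after siASAP1 and 1446, 1018 and 806 after siCtrl. In Hs578T they were 612, 1063 and 530, against 989, 1621 and 1459. In SUM149PT they were 844, 679 and 1079, against 1322, 2034 and 1119. The groups did not overlap in BT549 and SUM149PT, and in Hs578T siASAP1 replicate 2 lay above siCtrl replicate 1. All 9 siASAP1 libraries lay below the siCtrl mean of their line. The Log2 FC was -0.86 (SE 0.19), with an adjusted p of 0.0255 by limma. By line it was -0.91 (BT549), -0.92 (Hs578T) and -0.76 (SUM149PT), and the interaction test did not show a difference between the lines (adjusted p = 0.998 by limma).

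Without SUM149PT siCtrl replicate 2 the DARS value was -0.80 with an adjusted p of 0.0456 by limma. Leaving out BT549 siASAP1 replicate 2 or 3, BT549 siCtrl replicate 1, Hs578T siASAP1 replicate 1 or 3, or SUM149PT siASAP1 replicate 2 raised the adjusted p by limma to between 0.0511 and 0.0638, with values between -0.83 and -0.79. Over the 12 libraries of BT549 and Hs578T alone it was -0.91, with an adjusted p of 0.130 by limma.

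A further 5 members had an unadjusted p under 0.05 over the 18 libraries (15.8% of all probes did) and missed the adjusted limit. FARSB had a Log2 FC of -0.59 (SE 0.19, adjusted p = 0.119 by limma), QARS, the glutaminyl-enzyme, -1.10 (SE 0.37, adjusted p = 0.134) and RARS, the arginyl-enzyme, -0.49 (SE 0.17, adjusted p = 0.146). In each of these, all 9 siASAP1 libraries lay below the siCtrl mean of their line. HARS2 had 0.68 (SE 0.23, adjusted p = 0.148 by limma), with 9 of 9 siASAP1 libraries above that mean, and YARS2, the mitochondrial tyrosyl-enzyme, 0.90 (SE 0.32, adjusted p = 0.153), with 8 of 9 above. Without SUM149PT siCtrl replicate 2 the values were -0.59 for FARSB, -0.86 for QARS, -0.44 for RARS, 0.55 for HARS2 and 0.91 for YARS2, with adjusted p from 0.138 (FARSB) to 0.218 (HARS2) by limma.

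FARSB, whose product pairs with that of FARSA, measured 418, 362 and 323 normalized counts after siASAP1 in BT549, against 641, 548 and 400. In Hs578T the counts were 598, 1092 and 623, against 1045, 1219 and 1214, and in SUM149PT 646, 319 and 758, against 711, 810 and 1002. The ranges overlapped in every line. FARSA had a Log2 FC of 0.34 (SE 0.25) over the 18 libraries, with an adjusted p of 0.557 by limma. The partners thus had values of opposite sign, and neither passed the test. They also lay on opposite sides of the replicate axis, with 85.4% (FARSA) and 13.6% (FARSB) of their within-group variance on it.

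QARS in SUM149PT was highest in siCtrl replicate 2, with 55.6, 46.2 and 88.0 normalized counts after siASAP1 and 153, 505 and 83.1 after siCtrl. Its Log2 FC in that line was -1.60 (SE 0.72), and -0.88 (SE 0.58) without that library. YARS2 measured 61.9 ± 14.4 after siASAP1 and 31.8 ± 5.58 after siCtrl in SUM149PT (SD, n = 3 libraries each), and 21.5 ± 3.06 against 9.98 ± 5.47 in Hs578T, without overlap in either line. In BT549 the counts were 17.8, 52.9 and 52.0 after siASAP1, against 22.5, 26.4 and 21.7, with overlap. The replicate axis was also added to the fit as a covariate, chosen after the data were seen. With it 4 members were called down (DARS, FARSB, QARS and RARS) and 2 up (HARS and HARS2). Of all probes, 4.63% were called down and 3.67% up, 869 in all. Axis scores are deviations from group means, so this covariate left each Log2 FC as it was and changed only the spread used to judge it. It cannot show what part of a Log2 FC lies on the axis. The axis was estimated from these same libraries, so these calls are an alternative and not a second test.

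**Figure D2:**
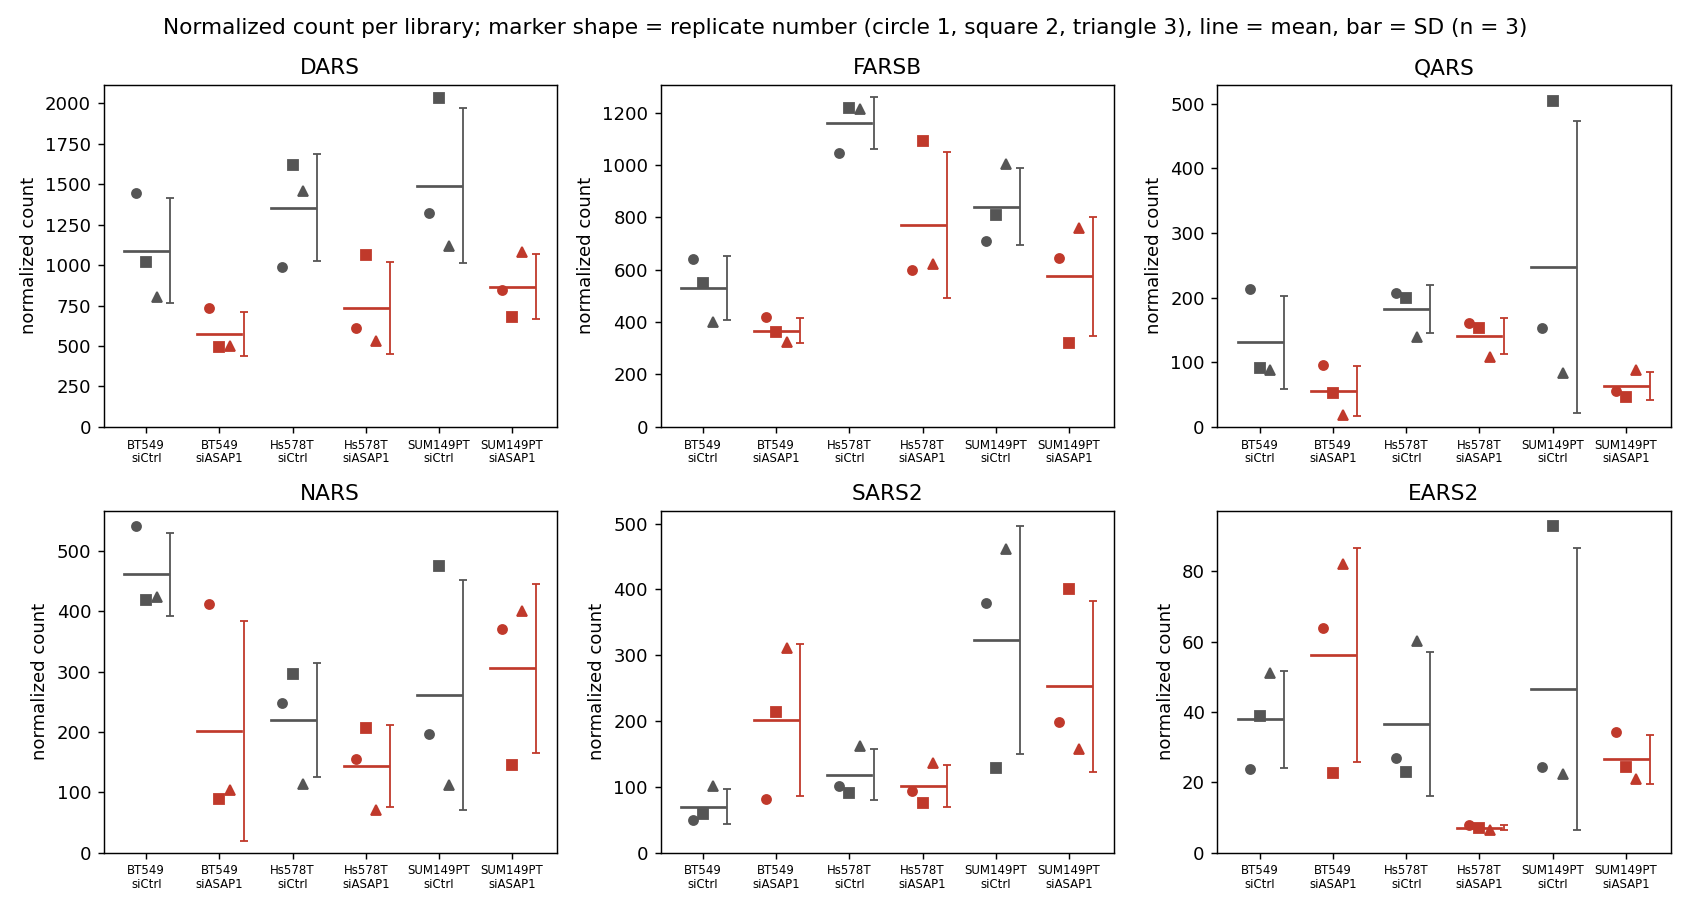
Normalized counts of DARS, FARSB, QARS, NARS, SARS2 and EARS2 in each library by line and treatment (siCtrl grey, siASAP1 red, marker shape for the replicate number, horizontal line for the mean and bar for the SD of 3). DARS lies lower after siASAP1 in every line, with overlap in Hs578T alone, while QARS, EARS2 and NARS include single siCtrl or siASAP1 libraries far from the rest of their group.

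Among the 8 enzymes of the multisynthetase complex, 7 were tested over the 18 libraries. DARS fell and the others did not pass. Their median Log2 FC was -0.49, with 5 values below 0 and 2 above, beside a median of 0.02 for all probes tested. The 5 below 0 (DARS, QARS, RARS, LARS and IARS) all lay on the side of LARS2 on the replicate axis, as did MARS. The value was -1.005 (SE 0.70) for IARS, -0.33 (SE 0.16) for LARS, 0.06 for MARS and 0.13 for KARS. IARS had 0 reads in Hs578T siASAP1 replicate 3, beside 103 and 80.9 normalized counts in the other replicates of that group. Its Log2 FC in Hs578T was -1.48 (SE 1.52), although the mean counts were 61.4 after siASAP1 and 63.6 after siCtrl. The 4 probes of the 3 scaffold genes had a median of -0.59, all 4 below 0, and none was called. By line, the median of the complex enzymes was -0.68 (BT549), -0.39 (Hs578T) and -0.57 (SUM149PT, with 6 tested). SUM149PT siCtrl replicate 2 held the highest siCtrl count of that line for DARS, QARS, RARS, LARS and IARS, and the lowest for KARS. The median without that library is not given here.

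In BT549 alone, NARS and GARS fell and SARS2 rose by the limits of the study (unadjusted p under 0.05, Log2 FC above 1 in size), which 3.69% of the 9666 probes met downward and 3.28% upward. No member and no probe had an adjusted p under 0.05 by limma (4 members and 7.8% of probes had an unadjusted p under 0.05). NARS, the asparaginyl-enzyme, measured 412, 88.7 and 103 normalized counts after siASAP1 and 540, 419 and 423 after siCtrl. Replicate 1 of siASAP1 lay close under the controls and the other replicates far below them. The Log2 FC was -1.55 (SE 0.57), with an adjusted p of 0.599 by limma. It was -0.62 in Hs578T and 0.35 in SUM149PT. Over the 18 libraries it was -0.61 (SE 0.39, adjusted p = 0.485 by limma).

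The NARS call was lost without BT549 siASAP1 replicate 2 (-1.15) or 3 (-1.25) or siCtrl replicate 1 (-1.43). Without siASAP1 replicate 1 the value was -2.25 (adjusted p = 0.0197 by limma). Without that library 7 members were called down and 5 up, and so were 13.2% and 9.28% of all probes.

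GARS measured 255, 64.2 and 89.4 normalized counts after siASAP1 in BT549, against 203, 455 and 227, so that siASAP1 replicate 1 lay among the controls. Its Log2 FC was -1.27 (SE 0.57, adjusted p = 0.639 by limma). The call was lost without siASAP1 replicate 2 (-0.86) or 3 (-1.10) or siCtrl replicate 2 (-0.91) or 3 (-1.41). It was -1.85 without siASAP1 replicate 1. Over the 18 libraries the value for GARS was -0.88 (SE 0.65, adjusted p = 0.553 by limma). It ranged from -1.24 to -0.41 as single libraries were left out, with the latter value without SUM149PT siASAP1 replicate 2, where GARS had 2.56 normalized counts.

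SARS2, the mitochondrial seryl-enzyme, measured 80.9, 213 and 310 normalized counts after siASAP1, against 49.9, 59.1 and 101.0. Replicate 1 again lay within the range of the controls. The Log2 FC was 1.38 (SE 0.57, adjusted p = 0.630 by limma). It was not called without siASAP1 replicate 2 (1.23) or 3 (0.97) or siCtrl replicate 1 (1.17) or 2 (1.29). Without siASAP1 replicate 1 it was 1.93. In Hs578T and SUM149PT its Log2 FC was -0.21 and -0.28.

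In Hs578T, 1 member met the limits. EARS2, the mitochondrial glutamyl-enzyme, measured 7.93, 6.94 and 6.40 normalized counts after siASAP1 and 27.0, 22.8 and 60.1 after siCtrl, without overlap. The Log2 FC was -2.09 (SE 0.70, adjusted p = 0.915 by limma), and without Hs578T siCtrl replicate 3 it was -1.68 and no longer called. In this line 1.44% of the 9500 probes met the limits downward and 1.34% upward, 0 had an adjusted p under 0.05 by limma and 5.28% an unadjusted p under 0.05, as did 3 members (EARS2, DARS and LARS). EARS2 had a Log2 FC of 0.44 in BT549 and -0.50 in SUM149PT. It was the only member with an unadjusted p under 0.05 in the interaction test, where its adjusted p was 0.798 by limma, so a difference between the lines was not shown. Of all probes, 6.22% had an unadjusted p under 0.05 in that test and 0.00955% an adjusted one.

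In SUM149PT no member met the limits and none of the 29 had an unadjusted p under 0.05 by limma. Of the 10078 probes, 4.29% met them downward and 5.27% upward, 10.2% had an unadjusted p under 0.05, and 0 had an adjusted p under 0.05. Without SUM149PT siCtrl replicate 2, WARS was called down and CARS2, the mitochondrial cysteinyl-enzyme, up, while 8.94% of all probes were called down and 14.4% up. Without siCtrl replicate 3, QARS was called down, as were 2.31% of all probes. CARS2 had few reads, at 33.1, 34.6 and 5.26 normalized counts after siASAP1 and 0, 16.4 and 0 after siCtrl.

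Treatment groups without overlap were seen for 4 of 29 members in BT549 (NARS, DARS and RARS lower, NARS2 higher), against 13.9% of probes. In Hs578T they were 4 (EARS2, LARS and RARS2 lower, YARS2 higher), against 12.1%, and in SUM149PT 2 (DARS lower, YARS2 higher), against 17.3%.

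WARS was called in no line with every library in the fit. It measured 56.0, 130 and 128 normalized counts after siASAP1 in BT549, against 98.6, 49.0 and 47.0, and 172, 88.5 and 209 in Hs578T, against 87.8, 66.9 and 118. In SUM149PT it measured 34.4, 142 and 65.7, against 292, 62.0 and 305. The Log2 FC was 0.67, 0.73 and -1.35 in BT549, Hs578T and SUM149PT, and the difference between the lines had an adjusted p of 0.833 by limma. Over the 18 libraries it was 0.01 (SE 0.42). WARS met the limits downward in SUM149PT without siCtrl replicate 2 (-2.10) and with the replicate axis as a covariate, and upward in Hs578T without siASAP1 replicate 2 (1.09). Other interferon gamma genes were called up in part. TAP1, a peptide transporter of antigen presentation, met the limits in BT549 (2.21) and Hs578T (1.74), GBP1 in Hs578T (1.29) and SUM149PT (2.08), and GBP2 in Hs578T (1.05). TAP1 was low, with mean counts of 9.83 in BT549 siCtrl and 21.0 in Hs578T siCtrl. Values below 0 were those of GBP1 in BT549 (-0.26), PSMB9 in Hs578T (-0.16), and TAP1 and GBP2 in SUM149PT (-0.29 each). The remaining values by line lay above 0 without a call. Without SUM149PT siCtrl replicate 2 GBP1 was 1.97 and still met them. The GBP2 call was lost without Hs578T siASAP1 replicate 1 or 3 or siCtrl replicate 1 or 2 (lowest value 0.89), and the TAP1 call in BT549 without siASAP1 replicate 2 or siCtrl replicate 2 (lowest value 1.73). Over the 18 libraries 0 of 6 passed the adjusted limit, with a median of 0.60 and GBP2 below 0 (-0.29).

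KARS, CARS and RARS were not called in any line, also when any single library was left out. The Log2 FC of KARS was 0.03, 0.56 and -0.19 in BT549, Hs578T and SUM149PT. That of CARS, the cysteinyl-enzyme, was 0.39, -0.20 and 0.11, and over the 18 libraries 0.10 (SE 0.18). That of RARS was -0.68, -0.39 and -0.38, with 621 ± 166 normalized counts after siASAP1 and 993 ± 240 after siCtrl in BT549 (SD, n = 3 libraries each).

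**Figure D3:**
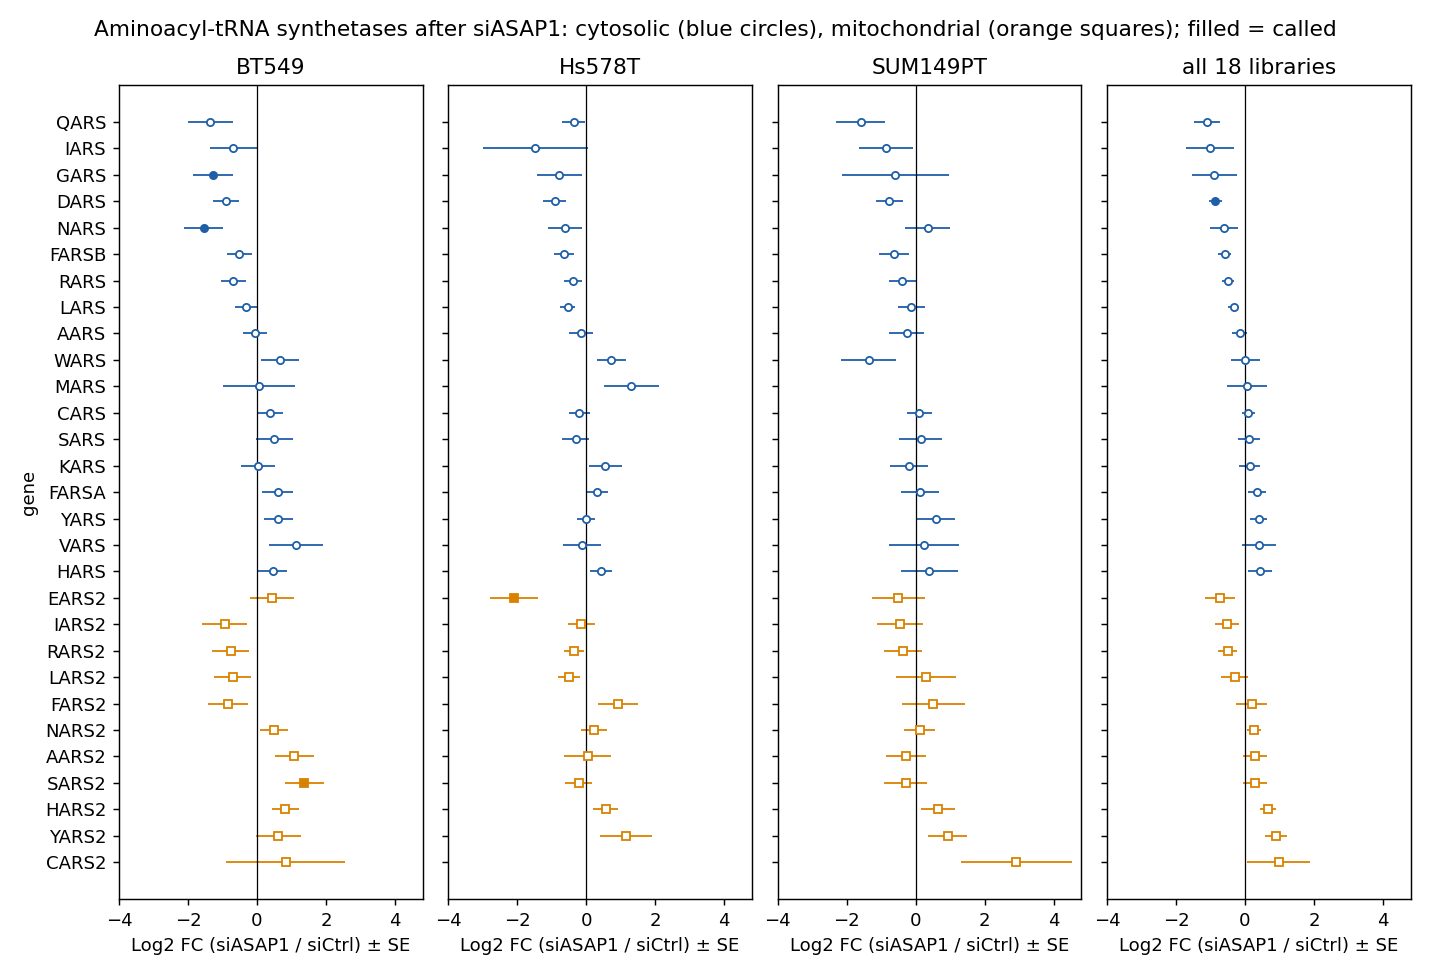
Log2 FC of siASAP1 over siCtrl with its SE for each tested member in BT549, Hs578T, SUM149PT and over all 18 libraries (cytosolic genes as blue circles, mitochondrial genes as orange squares). Filled symbols were called, by the limits of the study in a line and by an adjusted p under 0.05 over the 18 libraries: GARS, NARS and SARS2 in BT549, EARS2 in Hs578T and DARS over all.

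The cytosolic and mitochondrial enzymes were compared by their counts and medians. Over the 18 libraries, 9 of 18 cytosolic members had a Log2 FC below 0, with a median of -0.07, and 4 of 11 mitochondrial members, with a median of 0.28, beside 0.02 for all probes. In BT549 the medians were -0.01 and 0.50, in Hs578T -0.26 and 0.04, and in SUM149PT -0.19 and 0.21, beside -0.00, 0.01 and 0.09 for all probes. The median of the mitochondrial members was above that of the cytosolic members in each of these fits. In SUM149PT the cytosolic median went to 0.028 when libraries were scaled by their totals, which also moved the median of all probes from 0.09 to 0.30. Without SUM149PT siCtrl replicate 2 the medians there were -0.46 and 0.17. With a minimum mean normalized count of 50 the mitochondrial medians of BT549, Hs578T and SUM149PT were -0.10, -0.18 and -0.081, so their sign above 0 rested on members with few reads. In BT549 the mitochondrial median then no longer lay above the cytosolic one.

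Of the enzymes listed as ATF4-responsive, 10 of 12 were tested over the 18 libraries and 0 were called, with a median Log2 FC of -0.07. In BT549 alone, 2 of the 10 tested (NARS and GARS) met the limits downward, as did 3.69% of all probes. The other cytosolic members had a median of -0.18, with DARS called among 8. The 7 tested members that held the motif had values between -1.005 and 0.90, with a median of -0.15 and 4 below 0. ATF4 and its other targets were read alongside. Over the 18 libraries none of their 17 probes was called, with a median of 0.07. An unadjusted p under 0.05 by limma was seen for 7 of them, against 15.8% of all probes. ATF4, ATF5, CEBPB and a DDIT3 probe were above 0, and PHGDH, ASNS and PSAT1 below 0. ATF4 itself was 0.78 (SE 0.25, adjusted p = 0.118 by limma), and 0.79, 0.62 and 0.93 in BT549, Hs578T and SUM149PT. In BT549 the factors CEBPB (2.03) and ATF5 (1.41) met the limits upward while ASNS, which makes asparagine, met them downward (-2.91). ASNS had a low mean count of 28.7 in BT549 siCtrl. Its Log2 FC was -1.58 in Hs578T and 0.05 in SUM149PT, without a call. In Hs578T the cystine carrier SLC7A11 rose (1.28) and PSAT1, of serine synthesis, fell (-1.84). In SUM149PT the stress factor DDIT3 (2.14), SLC7A11 (1.70) and CTH (1.11), of cysteine synthesis, rose, and without siCtrl replicate 2 they were 2.23, 2.21 and 1.53 and still called. The calls of CEBPB and DDIT3 were kept without any single library of their line. ATF5 was lost without BT549 siASAP1 replicate 2 or 3 or siCtrl replicate 2 (lowest value 1.05), and ASNS without siASAP1 replicate 3 or any siCtrl library (weakest value -1.99). PSAT1 was lost without Hs578T siASAP1 replicate 1 or 3 or siCtrl replicate 1 or 2 (weakest value -0.83), and SLC7A11 in Hs578T without siASAP1 replicate 1 or siCtrl replicate 3 (lowest value 0.96). In SUM149PT SLC7A11 was lost without siASAP1 replicate 2 or 3 or siCtrl replicate 1 or 3 (lowest value 1.34), and CTH without any library other than siCtrl replicate 2 (lowest value 0.89).

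Among 8 tested amino acid transporters, SLC38A1, a carrier of glutamine and other small neutral amino acids, fell over the 18 libraries (Log2 FC -1.06, SE 0.22, adjusted p = 0.0151 by limma) and met the limits in BT549 (-1.24) and Hs578T (-1.20). SLC3A2 rose in BT549 (1.33) and SLC43A1 fell in SUM149PT (-1.68). The SLC38A1 call over the 18 libraries and that in Hs578T were kept without any single library. In BT549 SLC38A1 was lost without siASAP1 replicate 2 or 3 or siCtrl replicate 1 (weakest value -1.01) and SLC3A2 without siASAP1 replicate 2 or 3 (lowest value 0.997). SLC43A1 was -1.71 without SUM149PT siCtrl replicate 2, and its call was lost without siASAP1 replicate 2 or siCtrl replicate 1 (weakest value -1.21). Of 18 other genes of tRNA charging and delivery, 13 were tested over the 18 libraries and 0 were called, with a median of -0.23. In SUM149PT alone TARSL2, a further threonyl-enzyme, met the limits upward (2.15), and DTD1, which removes D-amino acids from tRNA, met them downward (-2.20). Without siCtrl replicate 2 they were 2.15 and -2.41, and both calls were kept without any single library of the line.

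Levels between the lines were compared in the 9 siCtrl libraries over 10255 probes, of which 27 read members. A call needed both a Log2 FC above 1 in size and an adjusted p under 0.05. Between Hs578T and BT549, 2 members were called, against 13.8% of probes. Between SUM149PT and BT549 it was 1, against 18.2%, and between SUM149PT and Hs578T 2, against 20.2%.

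CARS was highest in Hs578T, at 1872, 2483 and 3562 normalized counts. BT549 had 850, 731 and 871, and SUM149PT 762, 718 and 1084. The Hs578T libraries lay above all the others, and BT549 and SUM149PT overlapped. The Log2 FC was 1.64 for Hs578T over BT549 (SE 0.33, adjusted p = 0.00761 by limma) and -1.60 for SUM149PT over Hs578T (SE 0.33, adjusted p = 0.00649). Both calls were kept in each of the 9 fits that left out a library. BT549 and SUM149PT differed by 0.04 (SE 0.33), within their spread.

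FARSB followed the order Hs578T, SUM149PT and BT549, at 1159 ± 99.2, 841 ± 148 and 530 ± 122 normalized counts (SD, n = 3 libraries each). Hs578T exceeded BT549 by a Log2 FC of 1.15 (SE 0.30, adjusted p = 0.0316 by limma), and the neighbours in the order did not pass the limits. The call was lost without BT549 replicate 2 or 3 or any single Hs578T library, with values between 0.96 and 1.22.

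GARS measured 420, 1026 and 232 normalized counts in Hs578T, 203, 455 and 227 in BT549, and 34.3, 260 and 22.4 in SUM149PT. SUM149PT was below Hs578T by a Log2 FC of -2.96 (SE 0.88, adjusted p = 0.0396 by limma), although SUM149PT siCtrl replicate 2 lay above 1 Hs578T library. Without that library the value was -4.02. The call was lost when any of the 3 BT549, SUM149PT replicate 1 or 3, or Hs578T replicate 1 or 2 was left out (adjusted p up to 0.161 by limma). With every library in the fit, BT549 did not pass the limits against either line. Without SUM149PT siCtrl replicate 2, GARS was also called between SUM149PT and BT549, as were 33.2% of all probes.

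SARS2 ran the other way, with 379, 128 and 462 normalized counts in SUM149PT, 101.3, 90.6 and 163 in Hs578T and 49.9, 59.1 and 101.0 in BT549. SUM149PT exceeded BT549 by 2.06 (SE 0.56, adjusted p = 0.0280 by limma), and every SUM149PT library lay above every BT549 library. Without SUM149PT siCtrl replicate 2 it was 2.63. The call was lost without SUM149PT replicate 1 (1.85) or 3 (1.71) or BT549 replicate 1 (1.86) or 2 (1.98). Hs578T lay between them and did not pass the limits against either with every library in the fit. Without SUM149PT siCtrl replicate 2, SARS2 was also called between SUM149PT and Hs578T. In all, 8 members were called between SUM149PT and BT549 and 6 between SUM149PT and Hs578T when SUM149PT siCtrl replicate 2 was left out, and so were 33.2% and 30.7% of all probes.

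**Figure D4:**
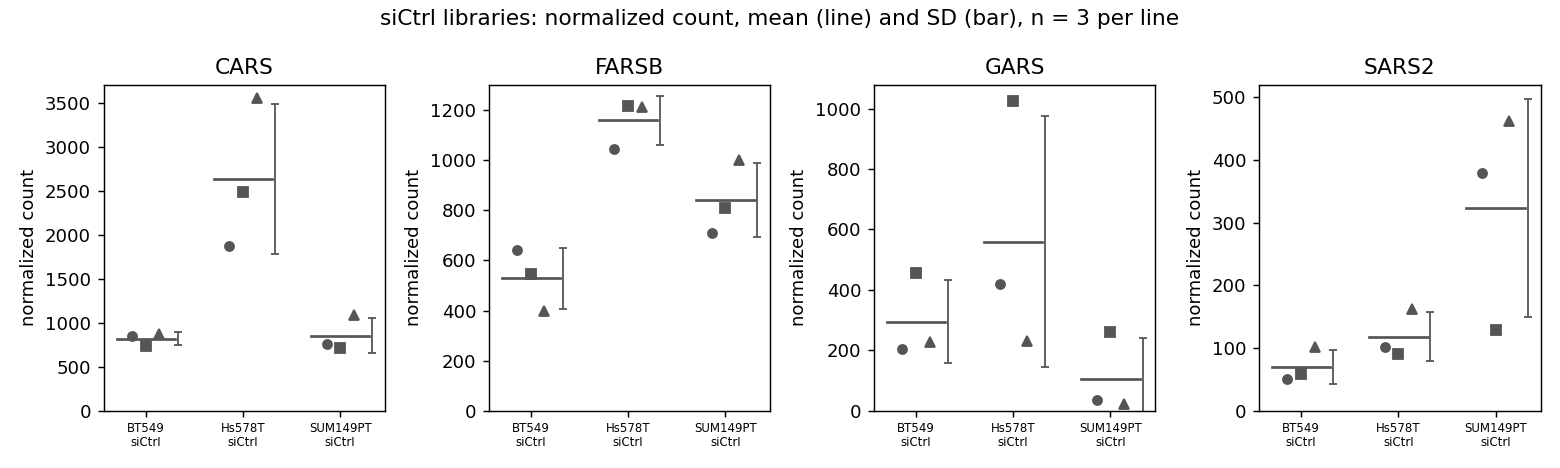
Normalized counts of CARS, FARSB, GARS and SARS2 in the siCtrl libraries of each line (marker shape for the replicate number, line for the mean, bar for the SD of 3, with the axis starting at 0). CARS stands at 1872 to 3562 in Hs578T and at no more than 1084 in the other lines, while SUM149PT replicate 2 (square) is high for GARS and low for SARS2 in its group.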

How the data were processed

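Deposited values were log2 values. Per the labels and the paper's methods, the authors counted TempO-Seq reads per probe, divided them by DESeq2 size factors, added 1 and took the log2. The submitters' processing notes name bcl2fastq, Bowtie and DESeq2. Their versions and the genome build are not given in the sources used here. Replicates were not pooled. Reads were recovered as whole numbers for 100% of values (tolerance 0.1). Every replicate pair differed by more than counting noise (chi-square divided by its degrees of freedom, 10.7 to 276).

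Groups came from the labels. Probes that averaged 10 or more normalized counts over a fit were tested with limma 3.58.1 (lmFit, eBayes with trend) in R 4.3.3, per line, over the 18 libraries with line as covariate, with the interaction, and among siCtrl libraries. All p-values were adjusted by Benjamini-Hochberg over all probes of a fit. Since 1 is added before the log2, changes of low probes are understated. A single library with 0 reads can still carry a Log2 FC, as for IARS in Hs578T. The replicates' cultures are described as biological triplicates, and p-values measure the spread between these libraries. The members and gene lists were chosen with earlier results of these data known. Members were described by sample where called in a line or over the 18 libraries, with GARS, KARS, WARS, CARS and RARS always named. QARS, FARSB, HARS2, YARS2, HARS, LARS2, IARS, LARS, MARS, FARSA and CARS2 were added after their values were seen. Alternatives were scaling by library totals, no filter, a minimum of 50, a pseudocount of 0.1, summed probes, all 18 libraries in a single fit, the replicate block and each library left out. Voom weights, the replicate axis as a covariate and leaving out SUM149PT were added after seeing the data. The fits were checked on simulated data for their recovery of large added changes. Those reads were drawn independently, without a shared replicate axis, so the check does not measure false calls in these libraries. GC content is that of GENCODE 29 transcripts, and promoters are from RefSeq. Same-numbered siASAP1 and siCtrl libraries did not all deviate together, and the numbers were not used as pairs. Figures used Python 3.11.15 and matplotlib 3.10.9.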

Additional observations from a re-analysis of the deposited data

How the results depend on the processing

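Under the alternatives no value past its limit changed sign. DARS kept an adjusted p under 0.05 by limma in 7 of 9 alternatives that left out no single library (0.00212 to 0.130 over the 9) and in 12 of 18 that left out a library. Scaling by library totals gave 1 member called down in BT549 (3.09% of all probes) and 1 called between Hs578T and BT549 (14.3%). It also gave 3 between SUM149PT and BT549 (18.2%), with medians of 0.028 (cytosolic) and 0.41 (mitochondrial) in SUM149PT. A minimum of 50 gave 0 down in Hs578T (1.19% of probes) and mitochondrial medians of -0.10, -0.18 and -0.081 in BT549, Hs578T and SUM149PT. No filter gave 2 up in Hs578T (1.51% of probes), and voom weights 1 (1.06%), in both cases TARS2 probes. A pseudocount of 0.1 gave 1 down in BT549 (3.4% of probes) and 1 between SUM149PT and Hs578T (18%). A single fit of the 18 libraries lost GARS and gained QARS in BT549 (3.16% of probes down). It gave 1 down in SUM149PT (7.47%) and a mitochondrial median of -0.14 in Hs578T. With the replicate axis as a covariate, 4 fell and 2 rose over the 18 libraries (4.63% and 3.67% of all probes). In SUM149PT 2 fell (8.14%). Without SUM149PT, 0 fell (0.11% of probes). The causes of these shifts were not tested.

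With the replicate block, 0 members fell over the 18 libraries (DARS -0.86, adjusted p = 0.0713 by limma), beside 0.191% of all probes. GARS was no longer and QARS newly called in BT549 (3.37% of probes down), and 2 were called between SUM149PT and BT549 (19.7%). The numbers do not pair the samples: the correlation of same-numbered deviations was -0.19, -0.39 and 0.14 in BT549, 0.10, 0.42 and 0.41 in Hs578T and -0.33, -0.66 and -0.35 in SUM149PT.

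Leaving out each library in turn gave 0 to 1 down over the 18 libraries (0.581% to 1.19% of all probes). It gave 0 to 7 down and 0 to 5 up in BT549 (2.09% to 13.2% and 1.36% to 9.28% of probes), 1 to 2 down and 0 to 1 up in Hs578T (0.915% to 3.37% and 0.695% to 3.3%), and 0 to 1 down and 0 to 1 up in SUM149PT (1.94% to 8.94% and 2.29% to 14.4%). Between siCtrl lines it gave 1 to 3 for Hs578T and BT549 (8.81% to 21.3% of probes), 0 to 8 for SUM149PT and BT549 (12.8% to 33.2%), and 1 to 6 for SUM149PT and Hs578T (13.3% to 30.7%). Cytosolic medians ran from -0.41 to -0.091 (Hs578T) and from -0.46 to -0.029 (SUM149PT). Mitochondrial medians ran from 0.14 to 0.57 in BT549, -0.15 to 0.15 in Hs578T and -0.012 to 0.21 in SUM149PT. Precision of members with few reads, such as EARS2 and CARS2, was not separated from the spread between replicates.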
